A study of Mus musculus with 12 samples.

Results

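The genes described here are the cytosolic ribosomal protein genes of mouse tibialis anterior, a fast-twitch muscle of the lower leg, compared between controls and mice lacking Smyd1 in myofibers (CKO). They were chosen by symbol: every gene whose symbol begins with Rpl or Rps followed by a digit, together with Rplp0, Rplp1 and Rplp2, and without the Rps6k kinases. This gave 92 symbols among the 23923 genes measured. Of these, 30 encode core proteins of the small ribosomal subunit, 43 encode core proteins of the large subunit, 3 encode the P stalk and 8 are paralogs or like genes. A further 6 carry pseudogene symbols, 1 is the retrogene Rps27rt, and 1, Rps19bp1, is a binding partner of a ribosomal protein that the symbol rule also takes in.

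Each of 12 mice, 6 per group and all 6 weeks old, gave 1 RNA library of the tibialis anterior, on a mixed C57BL6/J;129S1/SvImJ background. The study states that the experiments following its histology of both sexes used male tissue only. Controls were Myf6 cre/+; Smyd1 flox/+ and CKOs were Myf6 cre/+; Smyd1 flox/-, and by the study's methods both also carried a Rosa26 YFP reporter. Both groups therefore carried Cre, and the controls kept 1 Smyd1 allele without loxP sites. Cre was made from the Myf6 locus, a myogenic factor gene of skeletal muscle, and by the study's account recombination was strong from about birth, so the deletion concerns cells that had used that locus. Levels are FPKM, fragment numbers scaled by transcript length and by the total of the library, so that levels of different genes are compared per length.

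Smyd1, a histone methyltransferase of striated muscle, was listed at 33.0, 34.9 and 47.1 FPKM (lowest, median and highest) in controls and at 27.8, 33.5 and 39.9 in CKOs. The groups overlapped (log2 fold change -0.13, SE 0.12, adjusted p = 0.545, limma with Benjamini-Hochberg adjustment), and after median-ratio scaling the log2 fold change was -0.32 (adjusted p = 0.0801). The values cover the whole gene and the sources used here do not say which exons the null allele lacks, so they are no check of the genotype. In the study's western blots SMYD1 protein was undetectable in CKO tibialis anterior. How many reads each library held is unknown. Judged by the steps between low values and set to 1 in control 1, depth was lowest in CKO 5 (0.983) and highest in CKO 1 (1.77). The replicate libraries correlated with r between 0.944 and 0.972 within a group across genes, which are not independent replicates. The myofiber markers were high in every library, with a summed level of 23500 to 39300 FPKM in controls and 27040 to 32090 in CKOs. Muscle also holds fibroblasts, blood vessels, nerve and immune cells, and in such bulk tissue fewer cells of a type cannot be told apart from less RNA per cell.

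A ribosome joins a small subunit, which reads the mRNA, to a large subunit, which makes the peptide bond, and each holds its own set of proteins around a core of ribosomal RNA. The P stalk is a flexible arm of the large subunit that recruits the translation factors. In vertebrates most of the mRNAs for these proteins start with a C followed by a run of pyrimidines at the 5′ end, through which growth signals acting by mTORC1 set their translation. Mammalian genomes hold many processed copies of these genes, and striated muscle is known for the paralog Rpl3l, which is made there beside or in place of Rpl3.

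The shared start of these genes is shown here because it is the feature by which the group is best known and the symbol rule did not use it. Promoter sequences were found in RefSeq (GRCm38.p6) for 66 of the 92 symbols. Within 25 bases on either side of the annotated start, on the transcribed strand, a C followed by C or T to a run of at least 7 bases stood in 37 of the 66 (56.1%), against 25.6% of the 27025 genes in that table and 27.2% of those tested in this muscle. The letters CCGGAAG, the core that ETS factors are known to bind, stood on either strand in 25 of the 66 promoters of 300 bases (37.9%), against 9.93% of all genes and 19.5% of the genes tested in this muscle that the table holds. The 8 windows that follow reach from 15 bases before to 15 bases after the annotated start, with a pyrimidine run of at least 7 bases in capitals. The first 5 belong to members with an unadjusted p below 0.05 between the groups, and the last 3 to members with longer runs.
Rpl23 (chr11:97782425-97782454, minus strand): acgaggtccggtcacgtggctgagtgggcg
Rpl13 (chr8:123102335-123102364, plus strand): ttCCCTTTCgcctgattttgattggcgttt
Rps25 (chr9:44407699-44407728, plus strand): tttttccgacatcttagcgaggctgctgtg
Rpl41 (chr10:128549154-128549183, minus strand): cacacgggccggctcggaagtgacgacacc
Rplp0 (chr5:115559452-115559481, plus strand): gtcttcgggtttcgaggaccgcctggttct
Rpl4 (chr9:64173372-64173401, plus strand): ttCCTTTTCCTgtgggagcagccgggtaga
Rpl15 (chr14:18270972-18271001, minus strand): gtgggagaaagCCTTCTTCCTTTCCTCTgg
Rps10 (chr17:27635230-27635259, minus strand): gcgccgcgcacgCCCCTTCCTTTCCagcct
Annotated starts can lie some bases from the true ones, so a window without a run says only that these letters are not within it.

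Listed levels spread over orders of magnitude although the proteins are used together in every ribosome. Averaged over the 12 mice, 39 of the 92 symbols lay below 1 FPKM, 32 between 1 and 10, and 21 at 10 or more. The 3 tested members with the highest control means were Rplp1 at 163 ± 36.2 FPKM, Rpl4, which lines the exit tunnel of the large subunit, at 81.9 ± 12.6, and Rpl3l at 46.8 ± 4.09 (SD, n = 6 each). At the other end, 33 symbols were listed at 0 in at least 1 library, 27 of them among the 76 core members, and Rpl10l, a paralog known from testis, was at 0 in all 12. All 92 symbols together held between 0.554% and 0.799% of a library's summed FPKM. Because core proteins are needed by every cell, a 0 here is given as listed and not read as absence of the mRNA.

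The members were short and often not unique in the genome. Their representative transcripts had a median length of 785.5 bases, against 3013 for all genes tested. Each transcript was divided into overlapping windows of 50 bases, and a window was counted as unique when no other annotated locus held it. The median unique share was 55.6% over the 92 symbols, and 41 of the 92 (44.6%) had fewer than 50% unique windows, against 1.55% of the 12167 genes tested that could be matched. Reads mapping to several places had been discarded before the FPKM were made. In the 21 members with under 25% unique windows the median level was 0.488 FPKM and 13 were listed at 0 at least once, and in the 17 with 75% or more the median was 8.81 FPKM and 3 were. The rank correlation of unique share with level was 0.37 over the 92 members (Spearman, a description across genes that share libraries and differ in length), and exceptions such as Rplp1, with 40.0% unique windows, stood far above it. The part of lost reads in these levels was not tested.

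**Figure D1:**
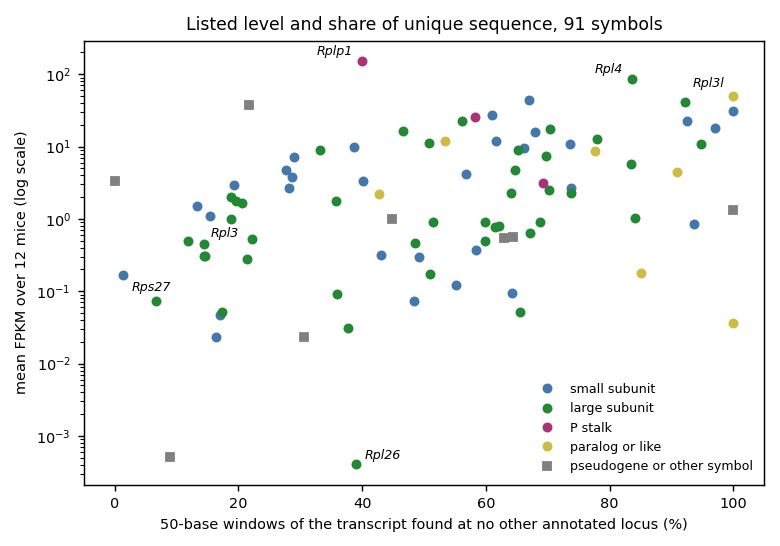
Mean FPKM over the 12 mice (log scale) against the share of 50-base windows of the transcript found at no other annotated locus, for 91 symbols coloured by class; Rpl10l, listed at 0 throughout, cannot be drawn on a log axis. The median level was 0.488 FPKM in members with under 25% unique windows and 8.81 FPKM in those with 75% or more.

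As deposited, many of the members moved alike from mouse to mouse, and the control group held 1 library that stood apart. For each of the 79 members that passed the filter on low values (at least 0.1 FPKM in at least 6 of 12 mice), the deviation of log2(FPKM + 0.1) from its own mean over the 12 mice was taken. The median deviation was 0.52 in control 1 and between -0.35 and -0.11 in the other 5 controls. In the CKOs it was 0.34 in CKO 3, 0.33 in CKO 1, 0.15 in CKO 2, 0.07 in CKO 6, 0.05 in CKO 5 and -0.02 in CKO 4. All 6 CKOs thus lay above controls 2 to 6 and below control 1. Control 1 was the highest control for 55 of the 79 members (69.6%), against 44.7% of all 12695 genes tested.

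These median deviations spanned a narrower range after scaling of the libraries, and the cause of what remained was not tested. The median log2 fold change of all genes tested, CKO against control, was 0.18 as deposited and 0.01 after median-ratio scaling, which sets the typical gene of each library level. After scaling, the median deviation of the members was 0.39 in control 1, from -0.21 to 0.00 in the other controls, 0.25 in CKO 3, 0.18 in CKO 1, 0.13 in CKO 2 and from -0.06 to -0.03 in the other 3 CKOs. On that scale 3 CKOs lay above controls 2 to 6, and 3 lay among them. Control 1 was the highest control for 47 of the 79 members (59.5%), against 26.0% of all genes.

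**Figure D2:**
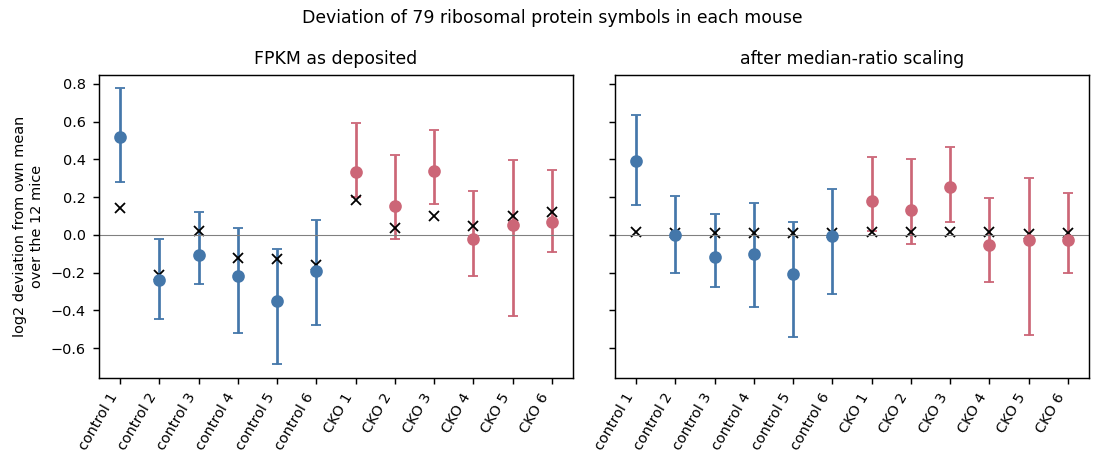
Median deviation (points) and its quartiles (bars) of log2(FPKM + 0.1) of 79 ribosomal protein symbols from their own means, in each control (blue) and CKO (red), as deposited (left) and after median-ratio scaling (right); crosses give the median over all genes tested. Control 1 lies at 0.52 and 0.39, above every other library on both scales.

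In control 1 the sums of several marker lists were also the highest of the controls. The summed level of 10 fibroblast markers was 909 FPKM there, the highest of the controls, whose lowest and median were 238 and 283. In the CKOs the same sum ran from 320 to 535 with a median of 377. The sum of 9 macrophage and leukocyte markers was 32.6 FPKM in control 1, with a lowest value of 8.63 and a median of 11.5 over the controls, and ran from 11.4 to 17.4 in the CKOs. None of these markers was listed at 0 in all libraries. Control 1 was also the highest control for the summed myofiber (39300 FPKM), satellite cell (11.8), erythroid (52.0) and adipocyte markers (2.87). It was not the highest for endothelial (40.8) or Schwann cell markers (12.8). As deposited, 3 of the 10 fibroblast markers and 0 of the 9 leukocyte markers were higher in CKO at an unadjusted p below 0.05, and without control 1 these counts were 9 and 4, where all genes gave 18.1% and 27.0%. Satellite cell markers were higher in CKO for 4 of 6 at an unadjusted p (summed level 6.77 to 11.8 FPKM in controls, 9.24 to 16.8 in CKOs), adipocyte markers for 2 of the 3 tested (0.898 to 2.87 and 2.35 to 6.95) and Schwann cell markers for 3 of 6 (11.4 to 15.9 and 13.5 to 20.9). After scaling these counts were 3, 2 and 0, and that of the fibroblast markers was 2, where all genes gave 6.66%. No endothelial or erythroid marker passed, with sums of 39.8 to 54.6 and 12.9 to 52.0 FPKM in controls and 41.1 to 62.8 and 19.6 to 40.9 in CKOs. Of the 10 myofiber markers 3 were higher and 1 lower as deposited, against 18.1% and 1.76% of all genes. After scaling 3 were higher and 5 lower, against 6.66% and 7.41%, so the direction differed from marker to marker. The part of these cells in the levels of the ribosomal protein genes was not tested.

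Between the groups, 2 ribosomal protein genes, Rpl23 and Rpl13, rose in CKO muscle at an adjusted p below 0.05, and none fell. Over all genes tested 2.02% were called higher and 0.268% lower by that rule, so 2 of 79 members is near the share of genes in general. At an unadjusted p below 0.05, 12 of the 79 were higher and 0 lower, against 18.1% and 1.76% of all genes, and 12 of 79 is 15.2%. The fold change was above 0 for 67 of the 79 members (84.8%) against 77.9% of all genes, and its median was 0.29 on the log2 scale against 0.18. In no member did the groups separate without overlap in either direction, as 2.23% of all genes did upward and 0.189% downward.

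After median-ratio scaling no member was called at an adjusted p below 0.05 (limma), where 0.764% of all genes were called higher and 0.709% lower. At an unadjusted p below 0.05, 5 members were higher (6.66% of all genes) and 1, Rplp1, was lower (7.41%). The median log2 fold change of the members was 0.11, against 0.01 over all genes. Again the groups overlapped for every member, against 0.788% of genes separated upward and 0.74% downward.

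These counts turned on control 1. Without it, 33 of the 79 members were higher at an unadjusted p below 0.05 and 15 at an adjusted one, against 27.0% and 8.4% of all genes, and none was lower at an unadjusted p (1.8%). Their median log2 fold change was then 0.39, against 0.22. With scaling as well, a combination added after the data were seen, 14 were higher at an unadjusted p (8.62% of all genes), 1 at an adjusted p (1.42%) and 0 lower at an unadjusted p (9.07%). In 5 members, Rpl22, Rpl32, Rpl41, Rps25 and Rps4x, all CKOs lay above the 5 remaining controls as deposited, against 6.1% of genes, and after scaling this held for Rpl41 alone, against 1.72%. No member lay wholly below them, as 0.354% of genes did as deposited and 1.86% after scaling. Rpl32 and Rps4x are named here after their values were seen. Control 1 is singled out because the members were high in it. It was the highest control for 69.6% of them, against 44.7% of all genes, so leaving it out raises their fold changes more often. The counts without control 1, and the p of single members without it, follow in part from that choice and are no separate support.

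**Figure D3:**
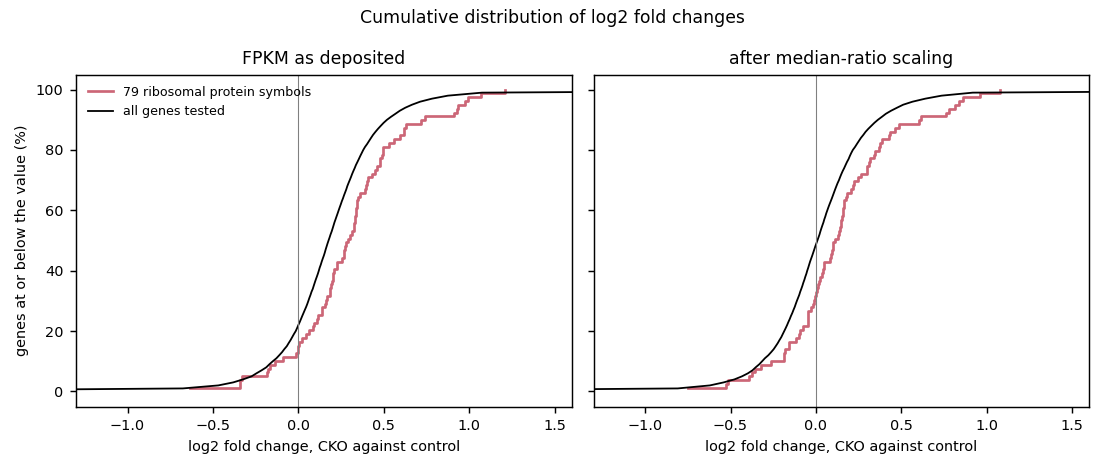
Percentage of genes at or below each log2 fold change, CKO against control, for the 79 ribosomal protein symbols tested (red steps) and all genes tested (black line; values beyond the axis are not drawn), as deposited and after median-ratio scaling. Through the middle of the distribution the members lie to the right of all genes, with medians of 0.29 against 0.18 and of 0.11 against 0.01.

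Among core proteins of the large subunit, 38 of 43 were tested, 32 (84.2%) had a fold change above 0, against 77.9% of all genes, and 8 (21.1%) were higher at an unadjusted p below 0.05, against 18.1%. After scaling 4 were higher (10.5%), against 6.66%. Rpl23, a large subunit protein also known to bind the p53 regulator Mdm2, was listed at 5.14, 7.03 and 8.88 FPKM (lowest, median and highest) in controls and at 8.85, 11.2 and 12.7 in CKOs. The groups met only where CKO 5 lay just under control 6. Rpl23 rose 1.53-fold (log2 fold change 0.62, SE 0.14, adjusted p = 0.0391, limma), and after scaling its log2 fold change was 0.43 with an adjusted p of 0.168.

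Rpl13, another protein of the large subunit, was listed at 0.742, 1.05 and 1.7 FPKM in controls and at 1.68, 1.90 and 3.74 in CKOs. Here 3 CKOs lay just under the highest control and the other 3 above it. Rpl13 rose 1.91-fold (log2 fold change 0.93, SE 0.23, adjusted p = 0.0475, limma), and after scaling its log2 fold change was 0.76 (adjusted p = 0.134). Only 19.7% of its windows were unique, so its level is uncertain. Both calls depended on which mice entered: when 1 mouse was left out at a time, neither gene passed in 8 of the 12 fits.

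The other large subunit genes with small p did not pass the adjusted threshold. Rpl10, which joins the large subunit late in its assembly, was listed in controls 1 to 6 at 0.349, 0.207, 0.277, 0, 0.0915 and 0.0756 FPKM and in CKOs 1 to 6 at 0.329, 0.430, 0.627, 0.226, 0.828 and 0.197. Its log2 fold change of 1.07 (SE 0.38, adjusted p = 0.143, limma) is on the scale with 0.1 added and understates ratios at such low levels. Rpl41, the smallest of the ribosomal proteins, was listed at 11.8 to 16.4 FPKM in 5 controls, at 34.4 in control 1 and at 19.7 to 34.5 in CKOs. With control 1 the log2 fold change of Rpl41 was 0.62 (adjusted p = 0.144), and without it 0.82 (adjusted p = 0.00688). Rpl22, an RNA-binding protein of the large subunit, showed the same arrangement: 7.45 to 10.1 FPKM in 5 controls, 14.4 in control 1 and 10.7 to 14.1 in CKOs (log2 fold change 0.39, adjusted p = 0.163).

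Other large subunit genes named by the same rule did not pass the adjusted threshold either. Rpl4 was listed at 63.8, 80.0 and 102 FPKM in controls and at 76.5, 95.4 and 96.0 in CKOs, with a log2 fold change of 0.18 as deposited and -0.01 after scaling (adjusted p = 0.373 and 0.984). Rpl15 was listed at 6.21, 6.83 and 10.4 FPKM in controls and at 5.62, 7.62 and 8.89 in CKOs (log2 fold change 0.00 as deposited and -0.18 scaled, adjusted p = 0.991 and 0.606). For Rpl6 the log2 fold change was -0.09 (adjusted p = 0.84) between medians of 1.76 FPKM in both groups. Rpl17, which stands at the tunnel exit, and Rpl9 had the largest negative values of the class at low levels. Rpl17 ran from 0.189 to 0.597 FPKM in controls and from 0 to 0.331 in CKOs (log2 fold change -0.64, adjusted p = 0.346), and Rpl9 from 0 to 0.128 and from 0 to 0.130 (log2 fold change -0.33, adjusted p = 0.579). Rpl12, which sits at the base of the stalk, was among the lowest of those tested, from 0 to 0.342 FPKM in controls and from 0.112 to 0.491 in CKOs (log2 fold change 0.46, adjusted p = 0.514).

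Of the 30 small subunit core genes 26 were tested, 23 (88.5%) had a fold change above 0 and 3 (11.5%) were higher at an unadjusted p below 0.05, fewer than the 18.1% of all genes. After scaling 1 was higher (3.85%), against 6.66%. Summed over the 30 genes, controls 2 to 6 and CKOs gave the same picture as the single genes: the control sum had a lowest value of 185.5, a median of 192 and a highest of 335 FPKM, the last in control 1, and the CKO sum ran from 220.5 to 292 with a median of 247. Rps25, needed for initiation at internal ribosome entry sites, was listed at 1.49 to 2.36 FPKM in 5 controls, 3.52 in control 1 and 2.49 to 3.44 in CKOs. The log2 fold change of Rps25 was 0.49 (SE 0.17, adjusted p = 0.128, limma) with all mice and 0.63 (adjusted p = 0.0121) without control 1. Rps4x, at 3.16 to 6.23 FPKM in controls and 4.10 to 7.22 in CKOs, and Rps19, mutated in Diamond-Blackfan anaemia, at 2.43 to 4.71 and 2.84 to 6.56, had log2 fold changes of 0.48 and 0.49 (adjusted p = 0.16 and 0.207). Rps19 too is named after its values were seen.

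The 3 small subunit genes with negative values were low or turned on 1 mouse. Rps3a1 was listed at 5.55 to 11.0 FPKM in controls, at 1.14 in CKO 4 and at 5.88 to 8.60 in the other CKOs (log2 fold change -0.34, adjusted p = 0.646). Without CKO 4 the log2 fold change of Rps3a1 was 0.10. Rps10 was listed at 0 in 2 controls and 3 CKOs and at most at 0.547 FPKM, in CKO 6 (log2 fold change -0.14, adjusted p = 0.899). Rps27 was listed at 0 in 3 controls and 3 CKOs and reached 0.483 FPKM in control 1 and 0.455 in CKO 1 (log2 fold change -0.0035, adjusted p = 0.998).

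The 3 genes of the P stalk had fold changes of both signs. Rplp0, which anchors the stalk to the large subunit, was listed at 17.9, 20.8 and 29.0 FPKM in controls and at 20.0, 28.0 and 39.1 in CKOs. The groups overlapped, and the log2 fold change of Rplp0 was 0.40 (SE 0.16, unadjusted p = 0.0221, adjusted p = 0.178, limma). Rplp1 and Rplp2 encode the acidic proteins that bind Rplp0 as pairs.

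Rplp1 was listed at 127, 161 and 222 FPKM in controls and at 111, 138 and 178 in CKOs, with overlap and with control 1 again the highest. Its log2 fold change was -0.19 as deposited (SE 0.15, adjusted p = 0.498) and -0.37 after scaling (unadjusted p = 0.0238, adjusted p = 0.262, limma), the only member at an unadjusted p below 0.05 in that direction. Without control 1 the value of Rplp1 as deposited was -0.09. Rplp2 was listed at 1.68, 2.75 and 3.67 FPKM in controls and at 1.71, 3.52 and 5.70 in CKOs (log2 fold change 0.28, adjusted p = 0.517).

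**Figure D4:**
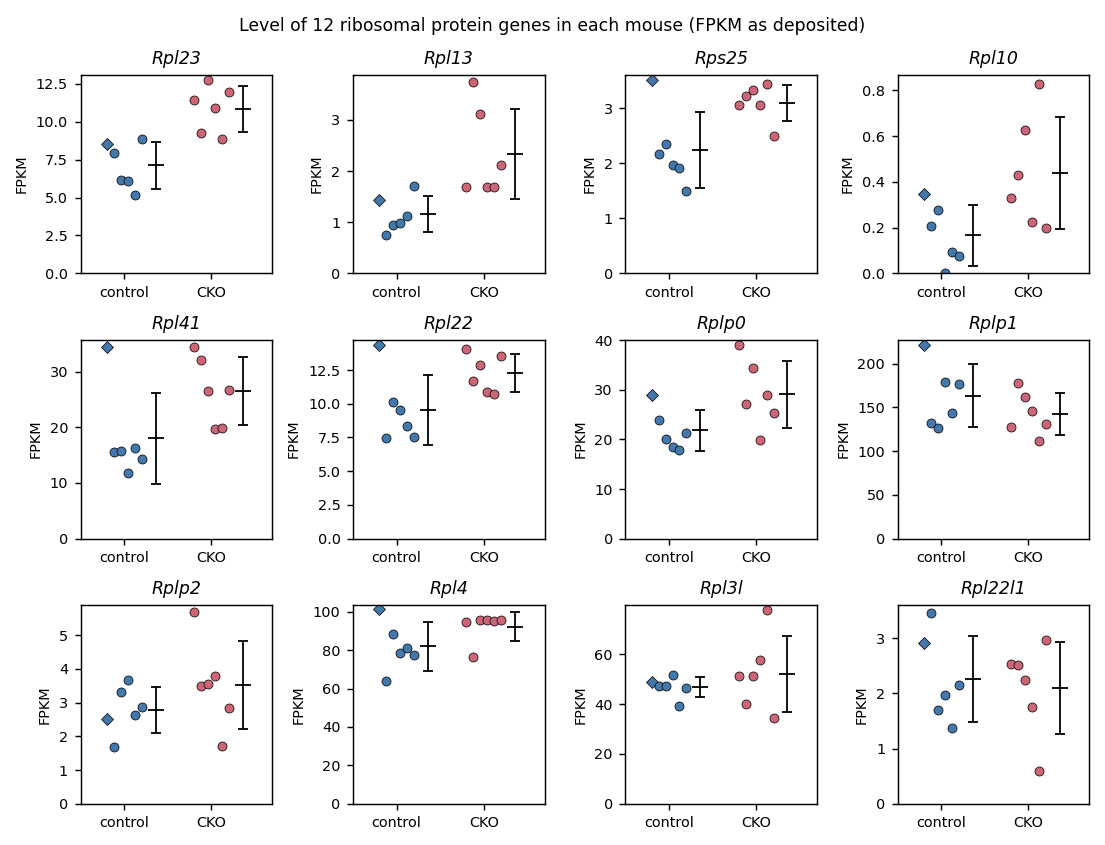
FPKM of 12 ribosomal protein genes in each mouse (points; axes start at 0), with control 1 as a diamond and the mean ± SD of each group (n = 6) as a bar. Rpl23 and Rpl13 were called at an adjusted p below 0.05, and in Rps25, Rpl41 and Rpl22 the CKOs overlap control 1 only.

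The paralogs were compared with their partners as log2 ratios within each mouse. A scaling of the library cancels from such a ratio except through the 0.1 FPKM added to both terms, which weighs most where a partner is listed near 0, as Rpl3, Rps27 and Rpl36a were. In this muscle the paralog was listed above its partner for Rpl3l, Rps27l and Rpl36al and below it for Rpl22l1. The mean log2 ratio of Rpl3l to Rpl3 was 6.87 ± 1.17 in controls and 7.14 ± 1.6 in CKOs (SD, n = 6 each). Rpl3l was listed at 39.3, 47.2 and 51.6 FPKM in controls and at 34.3, 51.3 and 77.7 in CKOs, the last in CKO 5, with a log2 fold change of 0.11 as deposited and -0.08 after scaling (adjusted p = 0.723 and 0.887). Rpl3 was listed between 0 and 1.05 FPKM and was at 0 in control 1, CKO 2 and CKO 4. Only 14.4% of the windows of Rpl3 were unique, against 100% of those of Rpl3l, so the size of this ratio is uncertain.

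None of the 4 ratios that could be tested differed between the groups at a p below 0.05 by a two-sided exact permutation test over 924 assignments of the mice, whose smallest possible p is 0.002165. The difference for Rpl3l to Rpl3, CKO minus control, was 0.28 (exact p = 0.736). For Rpl22l1 to Rpl22 the mean log2 ratio was -2.06 ± 0.55 in controls and -2.63 ± 0.68 in CKOs. The difference was -0.57 (exact p = 0.167, adjusted over the 4 ratios 0.667), and -0.30 without CKO 5. All 6 CKOs lay below the control mean, but only 2 lay below every control. Controls 1, 3, 4 and 5 lay below that mean too, at -2.27, -2.52, -2.22 and -2.52. Rpl22l1 itself was listed at 1.37, 2.05 and 3.46 FPKM in controls and at 0.591, 2.37 and 2.96 in CKOs (log2 fold change -0.18, adjusted p = 0.78).

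For Rps27l, a paralog known as a p53 target, to Rps27 the difference was 0.36 (exact p = 0.556), and for Rpl36al to Rpl36a it was 0.20 (exact p = 0.734). Adjusted over the 4 ratios both were at 0.736. Rps27 was listed at 0 in 6 mice and Rpl36a in 2, and they had 1.35% and 14.5% unique windows. The ratios with Rpl10l and Rpl39l, known from male germ cells, were not tested because both paralogs were under the filter: Rpl39l was at 0 in 5 controls and 3 CKOs and reached at most 0.177 FPKM. Its partner Rpl39 was listed at 1.25, 5.09 and 15.03 FPKM in controls and at 0.955, 6.81 and 8.90 in CKOs (log2 fold change 0.06, adjusted p = 0.966).

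Of the 6 tested paralogs, 5 had a fold change above 0 and 0 passed an unadjusted p below 0.05. The 5 tested pseudogene symbols gave 4 above 0 and likewise 0 at an unadjusted p below 0.05. In all, 13 of the 92 symbols did not pass the filter on low values, 9 of them among the 76 core members. Leaving out members listed at 0 in any mouse, an alternative added after the data were seen, left 58 with 11 higher at an unadjusted p. Keeping those with at least 50% unique windows, also added then, left 47 with 9 higher. The shares were 19.0% and 19.1%, beside 18.1% of all genes, to which neither limit was applied.

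How closely each member followed the others was measured as the correlation over the 12 mice of its deviation with the median deviation of the remaining members, given as a description since all points share libraries. The median r was 0.56 over the 79 members and ranged from -0.17 for Rpl3 to 0.94 for Rpl7. It was 0.62 over the 58 members never listed at 0 and 0.39 over the 21 listed at 0 at least once. After Rpl7 the closest were Rpl13a at 0.94 and, at 0.93 each, Rpl14 and the symbol Rpl14-ps1, and these 4 are named for that place. After scaling the median r was 0.39, with 28 of the 79 members above 0.5 and 9 below 0. The same measure was not taken for other genes, so it is not shown to be particular to these members.

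Genes that work with the ribosomal proteins were followed through lists of their own. Among genes of ribosomal proteins with other symbols, Gnb2l1, the Rack1 gene, was listed at 25.9 to 33.2 FPKM in 5 controls, 55.9 in control 1 and 34.7 to 45.5 in CKOs (log2 fold change 0.32, adjusted p = 0.27, limma). The CKOs thus lay above 5 controls and below control 1. Rpsa, a small subunit protein, was listed at 3.25 to 4.10 FPKM in 5 controls, 6.11 in control 1 and 4.13 to 6.10 in CKOs (log2 fold change 0.24, adjusted p = 0.372).

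Among 15 other mRNAs known for a pyrimidine start, 3 (20.0%) were higher and 0 lower at an unadjusted p below 0.05 as deposited. Over all genes these shares were 18.1% and 1.76%. After scaling 1 (6.67%) was higher and 1 (6.67%) lower, against 6.66% and 7.41% of all genes. The median log2 fold change of the 15 was 0.12 as deposited, against 0.18 over all genes. The 3 were the elongation factors Eef2 (70.2 to 90.3 FPKM in controls, 83.7 to 117 in CKOs, log2 fold change 0.30, adjusted p = 0.14) and Eef1a1 (13.4 to 37.3 and 17.2 to 33.4, 0.61, adjusted p = 0.155) and the initiation factor subunit Eif3f (0.29, adjusted p = 0.209). Of 8 noncoding hosts of small nucleolar RNAs, 1, Snhg6, was higher at an unadjusted p as deposited (log2 fold change 0.52, adjusted p = 0.176), while Gas5 stood at 0.37 (adjusted p = 0.383) and Snhg5 at -0.22 (adjusted p = 0.535).

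Of 52 ribosome biogenesis genes, 8 (15.4%) were higher and 0 lower at an unadjusted p below 0.05, with a median log2 fold change of 0.16, both under the values of all genes. After scaling 1 (1.92%) was higher and 0 lower, against 6.66% and 7.41% of all genes. Nip7, a factor of ribosomal RNA processing, was listed at 0.530 to 0.928 FPKM in controls and 0.808 to 1.5 in CKOs (log2 fold change 0.67, adjusted p = 0.0544), followed by Nvl at 0.41 and Ddx21 at 0.28 (adjusted p = 0.157 for both). RNA polymerase I and its factors transcribe the ribosomal RNA genes. Of 15 of their genes, 3 (20.0%) were higher and 0 lower as deposited, against 18.1% and 1.76% of all genes. After scaling 1 (6.67%) was higher, against 6.66%. The 3 were the subunit gene Cd3eap (1.32 to 2.01 FPKM in controls, 1.88 to 2.85 in CKOs, log2 fold change 0.52, adjusted p = 0.0664) and the factors Taf1b at 0.59 and Taf1d at 0.28 (adjusted p = 0.163 and 0.229).

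In the list of 18 tested genes that control ribosomal protein synthesis, Rptor, a subunit of mTORC1, was higher at an unadjusted p (1.19 to 1.87 FPKM in controls, 1.73 to 2.60 in CKOs, log2 fold change 0.46, adjusted p = 0.104), and Rps6kb1 and Akt1 had log2 fold changes of 0.24 and 0.27 (adjusted p = 0.265 and 0.309). After median-ratio scaling the medians of these lists other than the ribosomal proteins ranged from -0.08 for the small nucleolar RNA hosts to -0.02 for ribosome biogenesis, while that of the large subunit genes was 0.16 and that of the small subunit genes 0.06. No gene of these lists passed an adjusted p below 0.05 in limma on either scale.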

How the data were processed

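Total RNA of 12 tibialis anterior muscles was depleted of ribosomal RNA (ScriptSeq Complete Gold) and sequenced. The authors aligned reads with bowtie2 and TopHat2 2.0.10 allowing at most 2 mismatches, removed reads with more than 1 mapping place, and deposited FPKM from Cufflinks 2.1.1 on mm9, versions and build per the submitters' processing notes. Counts were not used here. Each file held 23950 rows, of which 27 rows with symbols turned into dates were left out. Without read counts no interval was given for single values.

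The 12695 genes that reached 0.1 FPKM in 6 or more samples were compared on log2(FPKM + 0.1) with limma 3.58.1 (R 4.3.3; trended prior variance, two-sided), with Benjamini-Hochberg adjustment over all genes tested, as deposited and after median-ratio scaling. A p-value here sets the group difference against the variation between mice, which limma moderates with that of all genes. Paralog ratios were compared by exact permutation (scipy 1.17.1). For transcript length and unique windows, symbols were looked up in the mouse GENCODE annotation, release 21, which held 95.2% of genes and all 92 members. Its build, GRCm38, differs from mm9. Promoter windows are RefSeq GRCm38.p6. Code was tested on simulated data.

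The members, the gene lists and the comparisons were chosen with earlier results of these data known. Named were the paralog pairs, the P stalk, members past the adjusted threshold, the 5 with the smallest p in each direction in each fit, the 3 highest and 3 lowest control means, and the 3 smallest p of each other list, and any others are said to be named after their values were seen. A gene that meets this rule is not reported here. Same-numbered mice of the 2 groups were not treated as paired in the main fits. The correlations of their deviations ran from -0.0861 to 0.164 and were not compared with those of mice with different numbers. Alternatives were adding 1 in place of 0.1 FPKM, filtering at 1 FPKM, no filter, quantile normalization, a length and GC correction, the replicate block, no trend, sample weights and each mouse left out. Lists of markers of 8 cell types were measured as counts and summed levels.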

Additional observations from a re-analysis of the deposited data

Results flagged for a closer look

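A gap test for a single distant mouse within a group of 6 (Dixon, at 95%) was run on 54 groups of values and marked 10. These groups share libraries, and many genes were named for a small p or an extreme level. The number marked was therefore not set against chance. The median deviation of the members in control 1 lay far above the other controls both as deposited (0.5196) and after median-ratio scaling (0.3892). Control 1 was also the distant mouse for Rpl15, at 10.4 FPKM, and Rpl41, at 34.4 FPKM. Among CKOs, Rpl4 was listed at 76.5 FPKM in CKO 2, where the other 5 lay between 94.7 and 96.0, and Rps3a1 at 1.14 FPKM in CKO 4. Rpl22l1 was listed at 0.591 FPKM in CKO 5 and Rps25 at 2.49 FPKM in CKO 6, both below the other CKOs. Rpl12 was listed at 0.491 FPKM in CKO 6, above the other CKOs, and Rpl9 at 0 in control 3 alone of the controls.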

How the results depend on the processing

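The median log2 fold change of the members stayed above 0 under every alternative run. With 1 mouse left out it ran from 0.22 to 0.39, while that of all genes ran from 0.15 to 0.22. Counts of members called moved, and the cause was not tested. Higher at an adjusted p: 0 with no filter (0.949% of all genes), median-ratio scaling (0.764%), quantile normalization (0.796%), the length and GC correction (0.764%) or no trend (1.54%). There was 1 with a pseudocount of 1 (1.77% of all genes), and 12 with sample weights (11.0%). With 1 mouse left out the count ran from 0 to 15, the 15 being without control 1 (8.4% of all genes). Added after the data were seen, scaling without control 1 gave 1 (1.42% of all genes) and the replicate block with scaling 0 (0.717%). Members with at least 50% unique windows gave 1, beside 2.02% of all genes, to which that limit was not applied. Higher at an unadjusted p: 5 with scaling (6.66% of all genes), 7 with the length and GC correction (6.41%), 35 with sample weights (29.2%), and 7 to 33 with 1 mouse left out (13.7% of all genes at 7, and 27.0% at 33, without control 1). The share of all genes called moved with these counts. Lower at an unadjusted p: 1 with scaling (7.41% of all genes) or quantile normalization (6.59%) and 2 with the length and GC correction (7.93%).

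The labels name no pairs of mice, and whether same-numbered mice belong together was not settled. The replicate block left 2 members higher at an adjusted p (2.14% of all genes). At an unadjusted p it gave 23 (29.1%), against 19.2% of all genes, and with scaling as well 8 (10.1%), against 6.75%. With the block and the length and GC correction 0 were higher at an adjusted p (0.806% of all genes), with 1 lower at an unadjusted p (8.02%). With the block and scaling also 1 was lower (7.45%). Under the block the adjusted p of Rpl13 was 0.0821 and that of Rpl41 0.0473.

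Values near 0 changed sign. With scaling, with or without the block: Rpl15 -0.18, Rpl36a -0.0095, Rpl39 -0.12, Rpl3l -0.078, Rpl4 -0.0055. Quantile normalization: Rpl15 -0.15, Rpl36a -0.11, Rpl39 -0.077. Length and GC correction, with or without the block: Rpl15 -0.15, Rpl36a -0.071, Rpl39 -0.12, Rpl3l -0.076. Pseudocount 1: Rpl3 0.058, Rpl36a -0.049, Rps10 0.00054. Sample weights: Rpl22l1 0.092, Rpl6 0.086, Rps10 0.18, Rps27 0.59. Scaling without control 1: Rpl15 -0.12, Rpl3l -0.11, Rps10 0.017, Rps27 0.23. With 1 mouse left out: Rpl15 -0.054 to 0.11, Rpl22l1 -0.30 to 0.13, Rpl3 -0.57 to 0.20, Rpl36a -0.23 to 0.33, Rpl39 -0.28 to 0.49, Rpl3l -0.016 to 0.22, Rpl6 -0.18 to 0.049, Rps10 -0.52 to 0.091, Rps27 -0.30 to 0.30, Rps3a1 -0.46 to 0.10, and the ratios Rpl3l to Rpl3 -0.13 to 0.69 and Rpl36al to Rpl36a -0.027 to 0.55.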
